A study of Homo sapiens with 10 samples.

Results

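Myoglobin is the oxygen-binding protein of heart and skeletal muscle, and its gene, MB, had the largest log2(RPKM + 1) rise of all tested genes when a human leukaemia line was treated with a phorbol ester. Described here are MB, 8 genes that lie near it in band 22q12.3 (APOL1 to APOL6, RBFOX2 and MYH9) and CYGB, the gene of the related globin cytoglobin, which lies in 17q25.1. These 10 genes were taken by symbol from the 27142 genes of the deposited table. MB was selected on the difference between its TPA and control RPKM, so its rise is given as a description with no test. The other 9 were chosen by position or kinship, with results of these data known.

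The cells were 697, an established human pre-B acute leukaemia line, grown either without treatment or with 12-O-tetradecanoylphorbol-13-acetate (TPA), an activator of protein kinase C. The dose was 0.5 µg/ml for a time that the labels state as 0 to 24 h, with no single value per library. The 2 control and 2 TPA RNA-seq libraries came from the parental line. The other 6 of the 10 samples in the series, ChIP and input DNA libraries, were not analysed here. No label says that replicates were separate cultures, so p-values measure only the spread between these libraries, which may be technical.

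Globins hold oxygen in a haem pocket. Myoglobin stores and carries oxygen in muscle fibres, where its gene is controlled by calcineurin, NFAT and MEF2 factors, and cytoglobin is found in fibroblast-like cells of many organs. The APOL genes form a cluster in which APOL1 encodes a serum protein that kills trypanosomes and the others encode mostly intracellular proteins; several are induced by interferon. RBFOX2 encodes a splicing factor, and MYH9 the heavy chain of non-muscle myosin IIA.

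The DNA before the starts of MB is shown because MB had the largest log2(RPKM + 1) rise among the RNA libraries. The RefSeq promoter table (GRCh38.p14) held 2 of the 10 genes, MB with 3 starts and MYH9 with 1, and does not say which start belongs to the accession listed for MB, NM_005368. The 250 bases before 2 of the MB starts follow, 5′ to 3′ on the minus strand, at chr22:35623355-35623604 (outer start) and chr22:35622530-35622779 (middle start). Capitals mark letters that match a motif searched on both strands.
Outer start: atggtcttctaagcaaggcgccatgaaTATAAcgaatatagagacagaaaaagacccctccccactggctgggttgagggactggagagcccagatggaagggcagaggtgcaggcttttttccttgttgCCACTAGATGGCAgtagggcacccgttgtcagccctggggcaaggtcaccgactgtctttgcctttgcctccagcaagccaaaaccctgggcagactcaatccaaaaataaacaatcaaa
Middle start: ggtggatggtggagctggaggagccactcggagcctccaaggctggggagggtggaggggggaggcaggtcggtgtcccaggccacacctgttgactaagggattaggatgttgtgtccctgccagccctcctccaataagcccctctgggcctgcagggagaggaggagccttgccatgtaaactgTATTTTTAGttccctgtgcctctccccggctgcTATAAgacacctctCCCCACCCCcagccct

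The motifs were TATA (TATAA), MEF2 (TATTTTTAG), the CCAC box (CCCCACCCC), AP-1 (TGANTCA), EGR (GCGNGGGCG), NF-κB (GGG, NN and TTTCC in a row) and the core of the CTCF motif (CCA, NN, AG, NN and GGCA in a row, N being any base). Matches do not overlap one another in these windows. The window of the middle start held MEF2 letters 63 to 55 bases, TATA letters 30 to 26 bases and CCAC letters 16 to 8 bases before the start. The window of the outer start held CTCF core letters 120 to 108 bases before the start, and TATA letters 223 to 219 bases before it. The window of the innermost start, not printed, held the CCAC box on the opposite strand 70 to 62 bases before the start, and the MYH9 window held none of the 7 motifs. Of 35116 promoter windows of the same length, 0.461% held the MEF2 letters, 0.533% the CTCF core letters, 5.75% the CCAC box and 18.9% TATA. AP-1, EGR and NF-κB letters, present in 6.57%, 8.41% and 1.73% of windows, were not in any of the 3 MB windows. The MB windows held 1, 3 and 4 CG pairs, the MYH9 window 21, and the median window 11. The window of RASD2, a neighbour of MB described below, held 4 CG pairs and none of the 7 motifs. A match describes letters and not a bound site, and the motifs were picked after the MB values and sequences had been seen.

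MB was near the bottom of the expressed range in untreated cells and near the top with TPA. Its level was 0.436 and 0.734 RPKM (read density scaled for transcript length and library size) in control replicates 1 and 2, and 636 and 747 RPKM in TPA replicates 1 and 2. Both TPA libraries were therefore far above both controls, and the groups did not overlap. Means were 0.585 ± 0.211 and 692 ± 77.9 RPKM (SD, n = 2 libraries per group, as for each mean that follows), a ratio of 1182. By level MB ranked 12192 in the control mean and 65 in the TPA mean among all genes listed, and it made up 0.182% and 0.192% of summed RPKM in the TPA libraries. On the log2(RPKM + 1) scale, which damps changes of low values, the rise was 8.77, and the gene next in size was RGS1 with 7.45. The order depends on the scale: by the ratio of means, 12 tested genes with control values above 0 were ahead of MB, each from a lower control mean, among them MMP7 with a ratio of 2867 and TNFRSF9 with 1613.

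The 5 tested genes whose values over the 4 libraries were most like those of MB, each centred on its own mean log2(RPKM + 1), were RGS1, MS4A1, MMP7, TNFRSF9 and EGR2. Their root mean square differences from MB were 0.70, 0.71, 0.93, 1.01 and 1.13 log2 units. RGS1 encodes a regulator of G-protein signalling, MS4A1 the B-cell antigen CD20, MMP7 a metalloprotease, TNFRSF9 a costimulatory receptor and EGR2 a zinc finger transcription factor. With 4 libraries in 2 groups, this ranking chiefly orders genes by the size of their rise, and none of the 5 lies in 22q12.3.

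**Figure D1:**
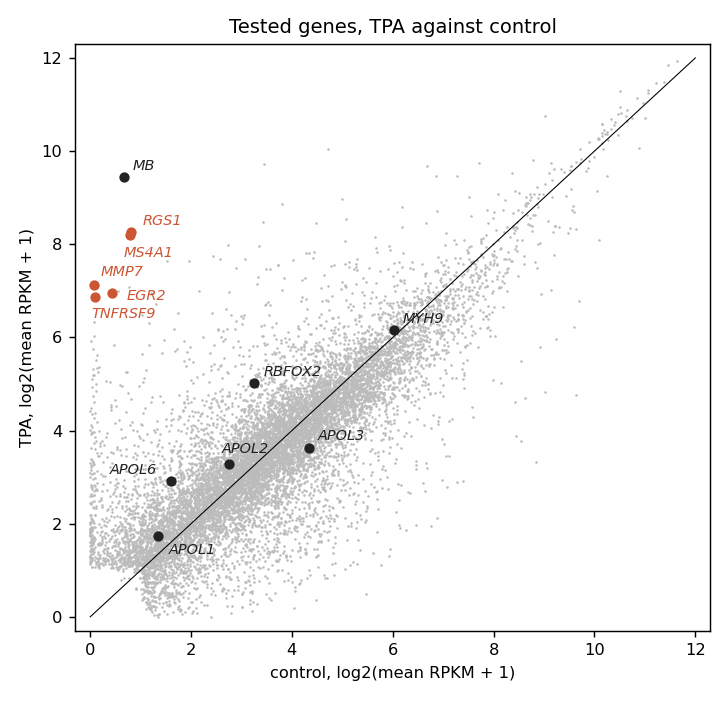
Mean level of each of the 12159 tested genes in the 2 control libraries (x axis) and the 2 TPA libraries (y axis), as log2(mean RPKM + 1), with the line of equal levels; black points are the tested genes described here and red points the 5 genes most like MB. MB lies above every other gene with a similar control level, while MYH9 lies next to the line.

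None of the other globin genes showed such a level. CYGB was listed at 0.02 and 0.02 RPKM in the controls and at 0.04 and 0.076 RPKM with TPA. Both TPA values were higher, but all 4 were under the filter of 1 RPKM, so CYGB was not tested; with no filter its adjusted p was 0.159 (limma). Of the 13 globin genes other than MB, which include those of haemoglobin, neuroglobin and androglobin, 8 were listed at 0 in all 4 libraries and 0 passed the filter.

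Markers of muscle were checked beside MB. Of 21 striated muscle markers, 18 were under 1 RPKM in every library, and the myosin genes MYH1, MYH2 and MYH6, the light chain gene MYL2 and the troponin gene TNNT3 were listed at 0 throughout. The other 3 markers passed the filter and were called as rises, as were 28.4% of all genes tested. TCAP and PYGM reached 1 RPKM only with TPA, so a rise was the only call open to them. TNNT1, a slow troponin gene, went from 4.25 and 4.48 to 19.1 and 20.9 RPKM, TCAP, the gene of the titin cap protein telethonin, from 0.466 and 0.388 to 3.40 and 4.79 RPKM, and PYGM, the muscle glycogen phosphorylase gene, from 0.054 and 0.083 to 2.01 and 3.60 RPKM. The summed level of the 21 genes was 6.03 and 5.70 RPKM in control and 25.9 and 31.3 RPKM with TPA. The part of such markers in the MB result was not tested, and in bulk RNA more cells of a type and more RNA per cell cannot be told apart.

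All 10 erythroid markers stayed under 1 RPKM, with the haemoglobin genes HBB, HBG1 and HBG2 listed at 0. So did 5 of 6 T-cell markers, with CD3D and CD3E listed at 0, and 9 of 10 myeloid markers, with S100A8 and S100A9 listed at 0. The exceptions were the costimulatory receptor gene CD28, which went from 0.009 and 0.004 to 14.8 and 17.9 RPKM, and the growth factor receptor gene CSF1R, which went from 0.548 and 0.706 to 2.93 and 3.66 RPKM. All 12 B-lineage markers were at 1 RPKM or more in the control libraries and 11 of 12 with TPA. Of these 12 genes 4 rose and 8 fell, while 28.4% of all genes tested rose and 29.8% fell. The pre-B markers were among those that fell, so the pre-B label matched the control libraries better than the TPA libraries. IGLL1, of the surrogate light chain, fell from 457 ± 3.14 to 8.97 ± 5.81 RPKM, and its partner VPREB1 dropped from 347 ± 12.9 to 13.6 ± 9.23 RPKM. DNTT, which adds bases at antigen receptor joints, had 775 and 803 RPKM in control and 14.6 and 37.4 RPKM with TPA. The recombinase gene RAG1 fell from 37.4 ± 1.08 to 4.62 ± 2.43 RPKM, and MME, the gene of the antigen CD10, from 8.19 ± 3.11 to 0.090 ± 0.0099 RPKM. MME reached 1 RPKM only in the control libraries, so a fall was the only call open to it. CD79A, a signalling chain gene of the B-cell receptor, rose from 208 ± 13.2 to 858 ± 49.6 RPKM. The part of these changes in the MB result was not tested. For the 12 genes the summed level was 2246 and 2236 RPKM in control and 1365 and 1552 RPKM with TPA.

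The genes nearest to MB in the APOL cluster were low, and they differed in direction. APOL6, which encodes an intracellular lipid-binding protein and is the next gene of the table on the side of the MB start, had 2.21 and 1.87 RPKM in control and 6.73 and 6.41 RPKM with TPA. The TPA values were above both controls, with means of 2.04 ± 0.240 and 6.57 ± 0.224 RPKM. Its log2 fold change was 1.32 (SE 0.132, limma, adjusted p = 8.09e-05), and it passed in all 13 alternative analyses.

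APOL2 had 6.03 and 5.48 RPKM in control and 8.68 and 8.73 RPKM with TPA. The groups did not overlap, and the rise was smaller than that of APOL6, with a log2 fold change of 0.52 (SE 0.129, limma, adjusted p = 0.00893). It did not pass without control replicate 2 (log2 fold change 0.46, adjusted p = 0.108). APOL1, the trypanolytic gene, had 1.68 and 1.42 RPKM in control and 1.88 and 2.74 RPKM with TPA. Both TPA values were higher, but TPA replicate 1 lay close to the controls. APOL1 did not pass, with a log2 fold change of 0.37 (95% interval -0.01 to 0.74, limma, adjusted p = 0.0834), although it passed without TPA replicate 1 (log2 fold change 0.55, adjusted p = 0.0153).

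APOL3 was the member of the family with the highest level in each library, and it went the other way. It had 20.1 and 18.2 RPKM in control and 8.84 and 14.0 RPKM with TPA. Both TPA values were lower than both controls, and the TPA libraries differed from each other more than the controls did. The log2 fold change was -0.73 (SE 0.201, limma, adjusted p = 0.0148), and it did not pass without TPA replicate 1 (log2 fold change -0.43, adjusted p = 0.0567) or with no filter on low values (adjusted p = 0.0838). APOL4 was listed at 0.062 and 0.028 RPKM in control and at 0 and 0.083 RPKM with TPA, and APOL5 at 0 in all 4 libraries. Neither was tested. APOL genes are similar in sequence and the sources used here do not say how reads matching several genes were counted, so their separate values are uncertain.

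RBFOX2, the splicing factor gene between APOL5 and APOL3, had 8.35 and 8.76 RPKM in control and 31.9 and 31.0 RPKM with TPA. Replicates lay close together in each group, and the groups were far apart. The means of 8.56 ± 0.291 and 31.5 ± 0.640 RPKM gave a log2 fold change of 1.77 (SE 0.128, limma, adjusted p = 1.36e-05), which passed in all 13 alternative analyses. MYH9, at the far end of the cluster from MB, had 70.6 and 57.3 RPKM in control and 76.7 and 63.3 RPKM with TPA. Here the groups overlapped, and in both the first replicate was the higher. Its log2 fold change was 0.13 (95% interval -0.25 to 0.51, limma, adjusted p = 0.524), and it passed in 0 of 13 alternative analyses.

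Of the genes described, 6 of the 9 genes other than MB passed the filter on low values, and 3 rose, 1 fell and 2 did not pass. Among all 12159 genes tested, 58.2% changed (28.4% rose and 29.8% fell). Of those 6 genes 4 were called, so the share was near that background, and with so few genes nothing is read from it. The values of TPA and control did not overlap for 5 of the 6, against 79.8% of all genes tested. Among the 10 genes the control levels fell in the order MYH9, APOL3, RBFOX2, APOL2, APOL6, APOL1, MB, APOL4, CYGB and APOL5. With TPA the order was MB, MYH9, RBFOX2, APOL3, APOL2, APOL6, APOL1, CYGB, APOL4 and APOL5. In the TPA order APOL3 and APOL2, CYGB and APOL4, and APOL4 and APOL5 did not differ beyond the spread between replicates.

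**Figure D2:**
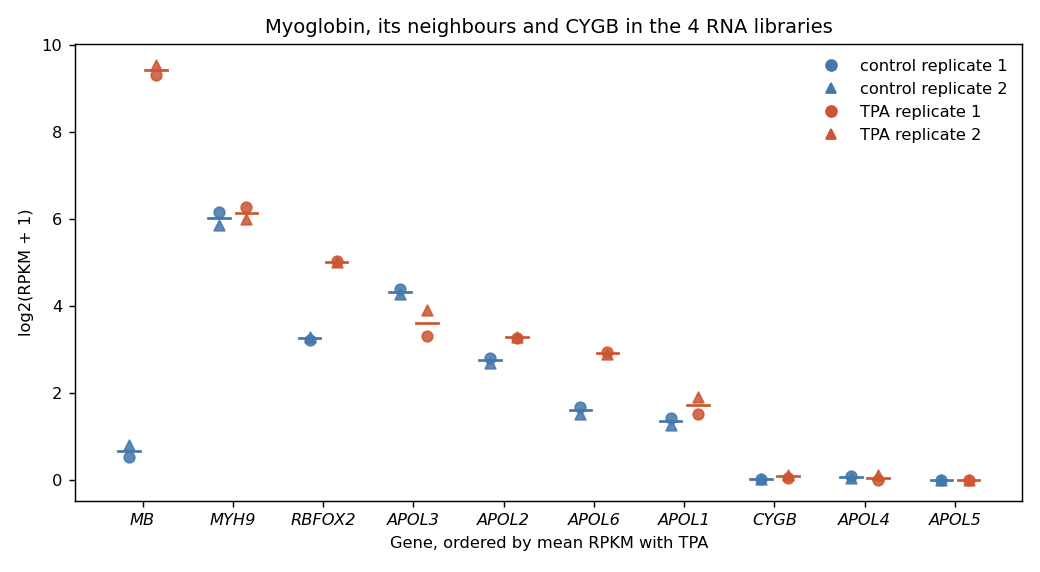
Level of each of the 10 genes as log2(RPKM + 1) in control (blue) and TPA (red) libraries, with circles for replicate 1, triangles for replicate 2 and a line at the mean of the 2 log values. MB goes from below all expressed neighbours but above APOL4, CYGB and APOL5 to the highest of the 10, APOL3 is lower with TPA, and the MYH9 groups overlap.

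The other genes of 22q12.3 place these values among those of the whole band. The table holds 56 genes of 22q12.3, all of which could be placed in RefSeq order. Among the 55 other than MB, 28 were tested, of which 12 rose, 6 fell and 10 did not pass the threshold, with a median log2 fold change of 0.21 against -0.02 for all genes tested. The share called was 64.3%, against 58.2% of all genes. Among the 12 rises, RASD2, IL2RB, HMOX1 and C1QTNF6 reached 1 RPKM only with TPA, so a rise was the only call open to them. The median was 0.017 with no filter on low values.

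Genes that rose and genes that fell lay side by side. RASD2, the gene of a small GTPase related to Ras, is the nearest gene of the table on the other side of MB from APOL6. It had 0.05 and 0.052 RPKM in control and 22.4 and 24.6 RPKM with TPA. Its log2 fold change of 4.54 was the largest in the band after that of MB. RASD2 passed the filter only through its TPA values, so its rise is given as a description. RefSeq places 1 further gene, LOC107985590, between RASD2 and MB and 1, LOC284912, between MB and APOL6; neither was analysed here. MCM5, a subunit gene of the replicative helicase and the next gene of the table beyond RASD2, had the largest fall of the band, from 122 and 115 RPKM to 19.0 and 14.0 RPKM (limma, adjusted p = 4.84e-06). Within 4 genes of the table the log2 fold change thus went from -2.78 (MCM5) through 4.54 (RASD2) and 8.77 (MB) to 1.32 (APOL6).

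Other large rises of the band were those of IL2RB, a receptor chain gene for interleukins, from 0.084 and 0.125 to 7.53 and 8.01 RPKM, and of TOM1, an endosomal sorting gene, from 6.21 and 4.83 to 25.0 and 26.6 RPKM. Other large falls were those of FOXRED2, which acts in the degradation of misfolded proteins, with a log2 fold change of -2.18, and YWHAH, a gene of the 14-3-3 family, with -1.39. The microRNA gene MIR6819 lies inside MYH9. Like its host it did not pass, and reads of the 2 cannot be told apart in these data. MB has PVALB among its older names in the table; the gene now called PVALB has its own row, which was listed at 0 in all 4 libraries.

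**Figure D3:**
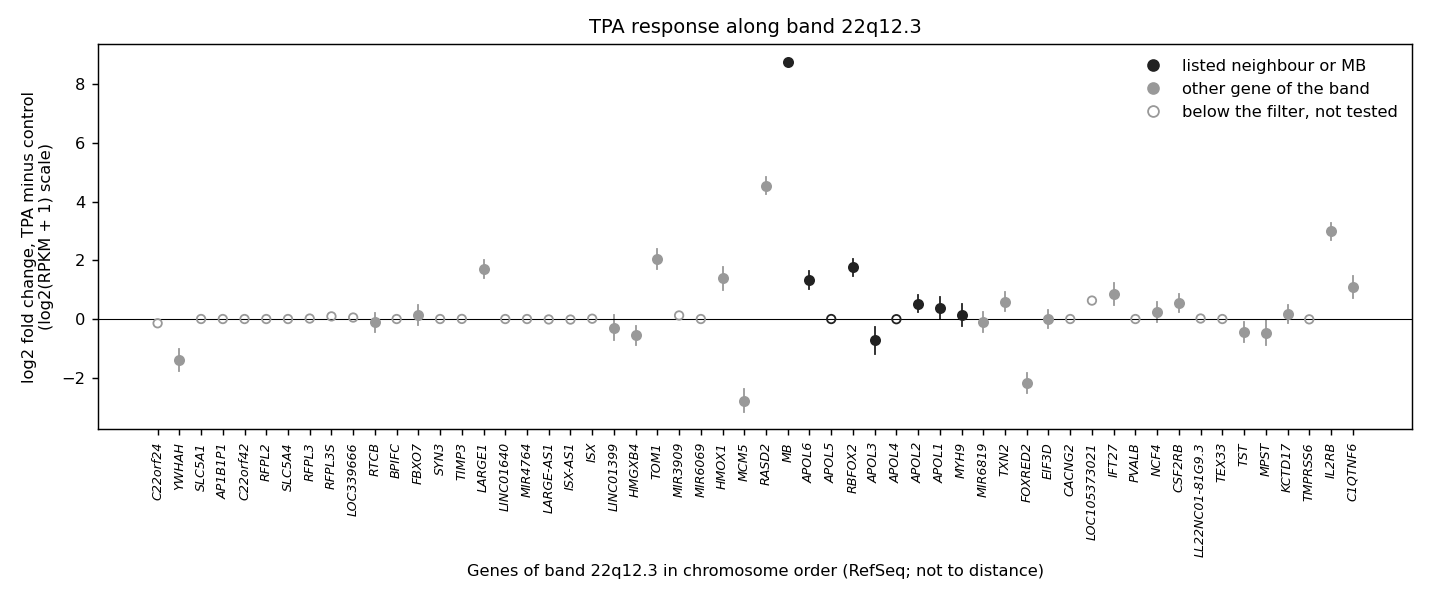
Log2 fold change of TPA minus control on the log2(RPKM + 1) scale for the 56 genes of 22q12.3, in chromosome order and not to distance, with 95% limma intervals for tested genes other than MB; black marks the genes described here, grey the other genes of the band, and open circles genes below the filter. MB at 8.77 and RASD2 at 4.54 stand side by side, with MCM5 at -2.78 next to them.

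Genes of the calcineurin, NFAT and MEF2 route, which acts on MB in muscle, went both ways. The list has 22 genes, of which 16 were tested: 7 rose, 4 fell and the other 5 did not pass. The share called was 68.8%, against 58.2% of all genes tested (28.4% rose and 29.8% fell). The median log2 fold change was -0.02, the same to 2 decimals as for all genes tested. NFATC3 and NFATC1, transcription factor genes that calcineurin activates, rose from 11.5 ± 1.22 to 65.1 ± 2.07 RPKM and from 6.39 ± 0.455 to 27.0 ± 1.22 RPKM. MEF2C, a MEF2 gene that also acts in B cells, fell from 200 ± 2.62 to 121 ± 20.9 RPKM, and SP3, a factor that binds GC-rich promoters, fell from 30.4 ± 3.05 to 20.2 ± 1.84 RPKM. Of the other MEF2 genes, MEF2A rose from 26.8 ± 0.807 to 45.7 ± 1.04 RPKM. MEF2D rose from 28.0 ± 0.00636 to 49.1 ± 3.60 RPKM, and MEF2B did not pass. The myogenic factor genes MYOD1, MYF5, MYF6 and MYOG were listed at 0 in all 4 libraries. Without control replicate 2 only 1 gene of this list fell.

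Genes of the hypoxia response, a condition in which MB is known to be induced in some tumours, showed no common direction. Of 18 genes listed 15 could be tested: 3 rose, 4 fell and the other 8 did not pass. The share called was 46.7%, against 58.2% of all genes tested, which also went both ways (28.4% rose and 29.8% fell). The median log2 fold change was -0.02 in the list and in all genes tested. NDRG1 rose from 2.63 ± 0.461 to 16.6 ± 1.39 RPKM and P4HA1, a collagen prolyl hydroxylase gene, from 18.2 ± 5.23 to 34.1 ± 0.0877 RPKM, while the lactate dehydrogenase gene LDHA fell from 563 ± 137 to 129 ± 43.5 RPKM and the mitophagy gene BNIP3 from 13.9 ± 5.43 to 5.23 ± 0.506 RPKM. LDHA was higher in control replicate 1 (660 RPKM) than in control replicate 2 (467 RPKM). Without control replicate 1, 5 genes of the list rose, and the median was -0.28 without control replicate 2. HIF1A, the oxygen-regulated subunit gene, had 47.9 and 47.1 RPKM in control and 44.2 and 46.4 RPKM with TPA and did not pass.

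Interferon and NF-κB signal genes are known to act on APOL genes. All 16 passed the filter; 9 rose, 1 fell and the other 6 did not pass the test. The share called was 62.5%, against 58.2% of all genes tested (28.4% rose and 29.8% fell). The median log2 fold change was 0.56 against -0.02, and whether the list differs from other genes was not tested. The interferon gamma receptor gene IFNGR1 rose from 9.88 ± 1.93 to 57.6 ± 5.99 RPKM and STAT2, a subunit gene of the interferon-activated factor ISGF3, from 4.11 and 3.89 to 17.2 and 20.7 RPKM. NFKB1 fell from 42.5 ± 6.35 to 23.7 ± 2.52 RPKM. Of the other NF-κB genes of the list, NFKB2 rose from 6.31 ± 0.694 to 15.2 ± 1.51 RPKM. RELB rose from 2.48 ± 0.599 to 5.18 ± 1.42 RPKM, and RELA did not pass. Among the APOL genes themselves 2 rose and 1 fell of 4 tested.

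For MYH9 and RBFOX2 the genes of their complexes were read in the same way. Of 13 tested genes of non-muscle myosin II and its regulators, 2 rose, 2 fell and 9, MYH9 among them, did not pass, with a median of 0.09. The share called was 30.8%, against 58.2% of all genes tested (28.4% rose and 29.8% fell). Whether the list differs from other genes was not tested. S100A4, a calcium-binding protein gene whose product binds the MYH9 heavy chain, rose from 102 ± 11.2 to 818 ± 186 RPKM. MYH14, the heavy chain gene of myosin IIC, rose from 0.003 and 0.006 to 1.95 and 2.40 RPKM. MYH14 reached 1 RPKM only with TPA, so a rise was the only call open to it. MYH10, the heavy chain gene of myosin IIB, fell from 24.4 ± 1.08 to 15.5 ± 1.61 RPKM, and the GTPase gene RHOA from 351 ± 14.7 to 273 ± 17.9 RPKM; RHOA had an adjusted p of 0.0490 (limma) and did not pass when any 1 library was left out. The 2 calls of a rise became 4 after median-of-ratios scaling and without TPA replicate 1, and 5 after quantile normalization.

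RBFOX2 was the only gene that rose among the 9 tested genes of the RBFOX family and its splicing complex, while 6 fell and 2 did not pass. Of all genes tested 28.4% rose and 29.8% fell, and no test compared the list with them. The median log2 fold change of the 9 was -0.47, against -0.02 for all genes. HNRNPM fell from 228 ± 25.7 to 149 ± 22.6 RPKM and MATR3, a nuclear matrix RNA-binding protein gene, from 145 ± 12.0 to 96.7 ± 10.4 RPKM. Without control replicate 2 only 1 of the partners fell, without control replicate 1 there were 3, and with no filter on low values 2; RBFOX2 rose in each. RBFOX1 and RBFOX3, the other genes of the family, were under 1 RPKM in all 4 libraries and were not tested.

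**Figure D4:**
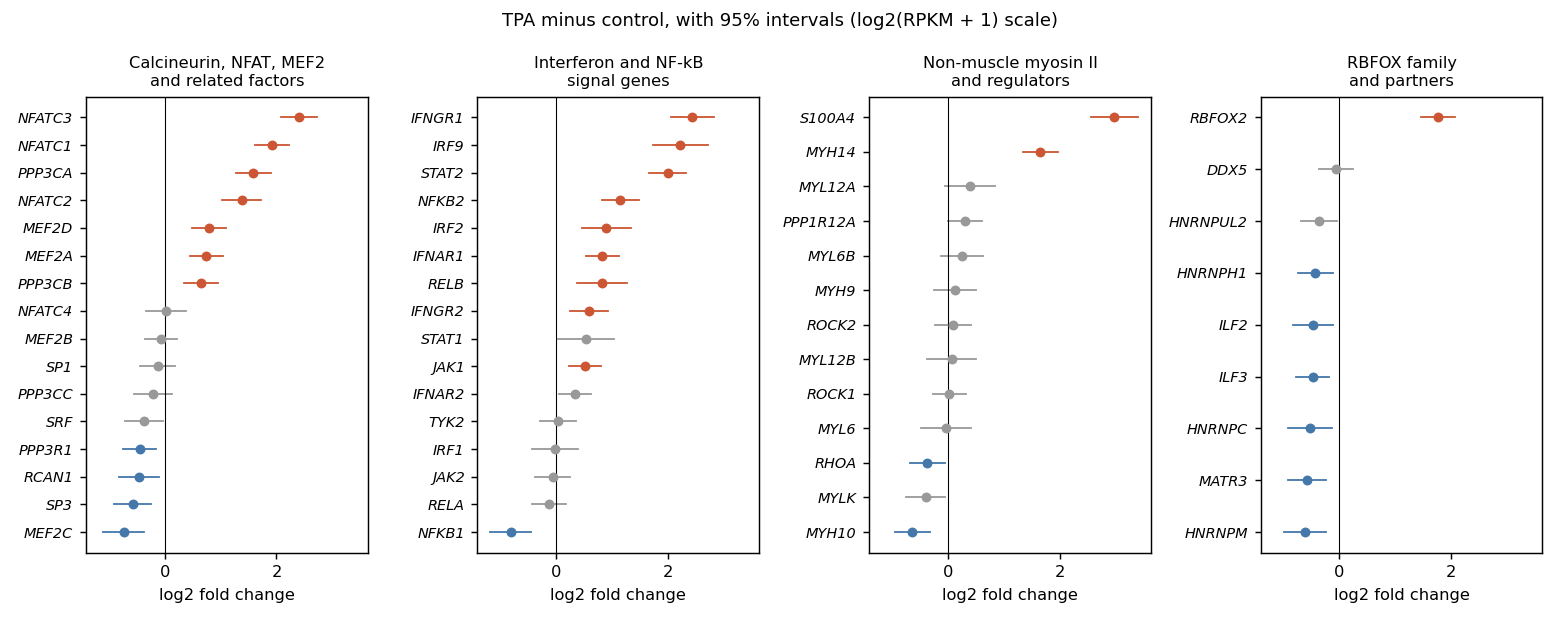
Log2 fold change of TPA minus control on the log2(RPKM + 1) scale, with 95% limma intervals, for the tested genes of 4 lists; red genes rose and blue genes fell at an adjusted p under 0.05, and grey genes did not pass. NFATC3 (2.41), IFNGR1 (2.44) and S100A4 (2.98) have the highest values of their lists, and RBFOX2 (1.77) is the highest of its list.

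At the level of whole libraries, summed RPKM ranged from 349438 to 388846, and 11449 to 11878 genes reached 1 RPKM. Read totals were not given. Judged by the spacing of low values, the other 3 libraries had 91.3% to 97.7% of the depth of control replicate 1. That estimate used only low values close to those of control replicate 1, so it could not show a large difference in depth. Whether precision was alike across libraries is therefore not known, and no counting interval can be given.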

How the data were processed

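The deposited values are in RPKM, per the file headers: 1 table that lists each gene in 2 control and 2 TPA libraries. The submitters' processing notes list CASAVA 1.8, Bowtie 1.12, TopHat, SAMtools and HOMER and the build hg19, with no role or order. Strand use and the treatment of reads that match several genes are not given in the sources used here. The members and lists were chosen with earlier results of these data known.

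Groups and replicate numbers came from sample titles. The 12159 genes that reached 1 RPKM in 2 or more libraries were fitted as log2(RPKM + 1) with limma 3.58.1 in R 4.3.3 (TPA minus control, trended empirical Bayes), with two-sided p-values adjusted by Benjamini-Hochberg over all of them and a threshold of 0.05; the fit was tested on simulated data. Fold ratios are of mean RPKM. Relative depth came from genes at 0.03 to 0.15 RPKM, kept only where the value was close to that of control replicate 1. The genes named are the 10 members, per list the 2 rises and 2 falls of smallest p, the 3 largest rises and falls of 22q12.3, the genes beside MB and the 5 most like MB. Other list genes, MIR6819, PVALB, HMOX1 and C1QTNF6 were named after their values were seen. The table has no coordinates, so gene order and promoters came from RefSeq (GRCh38.p14). Alternatives were 2 other pseudocounts, 2 other filters, 2 scalings, limma without trend or robust, a replicate block and each library left out. Figures were drawn with matplotlib 3.10.9.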

Additional observations from a re-analysis of the deposited data

How the results depend on the processing

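Of the 6 tested members other than MB, RBFOX2, APOL6 and MYH9 kept their side of the threshold in all 13 alternatives, while APOL1, APOL2 and APOL3 changed call as given beside their values. Of all 34 named genes with a test, 27 kept theirs in every alternative that tested them and none reversed a call, but most were named for a small p or a large change, so this says little about stability. MB rose by 9.33 and 10.01 log2 units with pseudocounts of 0.5 and 0.1. Without a filter, the members' fall was lost (0 fell) and their median was 0.25, the median of 22q12.3 was 0.0171, and the RBFOX list had 2 falls and a median of -0.42. The median of 22q12.3 was 0.15 with the filter at 5 RPKM, 0.24 after median-of-ratios scaling and 0.27 after quantile normalization. The RBFOX median was -0.44 and -0.32 under these scalings. Of the myosin list, 1 rose with the filter at 5 RPKM, 4 after median-of-ratios scaling and 5 after quantile normalization, and 1 fell with a pseudocount of 0.1 or no filter. The causes were not tested.

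Same-numbered libraries share only a number in the labels; their deviations from the group means correlated at 0.361 across genes, and with 2 per group this does not establish pairs. With the replicate number as a block, 3 members rose and 1 fell as before, 4 myosin genes rose in place of 2, and 8234 genes were called in place of 7075.

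With 1 library left out, the lone library of a group is assumed to vary like the others, and without either control the prior degrees of freedom were infinite. The members then had 0 to 1 falls (0 without TPA replicate 1) and 2 to 4 rises. In 22q12.3 there were 3 to 8 falls (3 without TPA replicate 1) and medians of 0.16 to 0.32. Falls ranged from 1 to 4 in the calcineurin list, 1 to 2 in the myosin list and 1 to 5 in the RBFOX list, and rises from 2 to 5 in the hypoxia list and 2 to 4 in the myosin list. Medians ranged from -0.0787 to 0.0600 for calcineurin, -0.28 to 0.0860 for hypoxia, 0.49 to 0.77 for interferon and -0.49 to -0.36 for RBFOX. Values under the filter, such as those of CYGB, APOL4 and APOL5, are limited by depth.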
